A study of Mus musculus with 6 samples.

Results

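Voltage-gated sodium, calcium and HCN channel genes were described in mouse hippocampus. The genes were chosen by name alone: rows of the gene tables that begin with Cacna1, Cacna2d or Cacnb, the Scn genes of alpha and beta subunits, the numbered Hcn genes, Nalcn, and Fgf12, Fgf13 and Fgf14. This gave 34 of 15639 rows. Another 6 names that fit the rule in the RefSeq gene table (Cacna1f, Cacna1s, Cacna2d4, Scn4a, Scn10a and Scn11a) were not analysed here. Total RNA was sequenced from 6 libraries of mice aged 6 months. In all, 3 carried the label wild type (WT) and 3 the label APP/PS1, a transgenic line said to express APP695swe and PS1-dE9. The labels name no strain, sex, transgene promoter or batch. Nothing says whether each library came from its own animal, and p-values here describe the spread among 6 libraries, part of which may be technical.

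These genes set how neurons fire. Sodium channel alpha subunits form the pore that carries the upstroke of the action potential, beta subunits adjust its gating and anchor it, and the fibroblast growth factor homologous factors Fgf12, Fgf13 and Fgf14 stay inside the cell and bind the channel tail. Calcium channel Cacna1 genes encode the pores of L-type (Cav1), P/Q-, N- and R-type (Cav2) and T-type (Cav3) currents, which need Cacnb and Cacna2d subunits to reach the membrane or gate normally, except that T-type pores can work without them. HCN channels open on hyperpolarisation and are prominent in pyramidal cell dendrites, and Nalcn is a sodium leak channel that holds the resting potential.

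Library sums ran from 182355 to 185217 FPKM (fragments scaled to transcript length and library size), and sequencing depth is unknown. Prnp, at 188.1, 181.5 and 457.2 FPKM in WT replicates 1 to 3, was at 471.6, 198.6 and 463.8 FPKM in APP/PS1 replicates 1 to 3, and App followed the same split. The libraries labelled WT replicate 3 and APP/PS1 replicate 2 thus went against their labels, so every direction drawn below is between labels, and values are also given for the other 4 libraries. Pan-neuronal markers (Rbfox3, Snap25, Syt1, Stmn2 and Tubb3, all 5 with a row) summed to between 365 and 415 FPKM in the WT libraries and between 389 and 441 FPKM in the APP/PS1 libraries, and none of the 5 was under 1 FPKM in any library. The tissue also holds glia, and in bulk RNA fewer cells of a type and less RNA per cell cannot be told apart.

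The promoters of members with the smallest p in the comparison between labels are shown first, since most other readouts here are single values per gene. Of 34 members, 25 had an entry in the RefSeq promoter table (GRCm38.p6), with 41 start sites. Cacna1h, which had the smallest p, had no entry. Each sequence is the 250 bases before a start, 5′ to 3′ on the gene's strand. Capitals mark matches on either strand to the motifs searched. A GC box, the element known to bind Sp1 family factors, was searched as GGGCGG. The core promoter element called the TATA box was searched as TATAAA. For AP-1, the site of Fos and Jun dimers, the letters were TGANTCA. The tables give 1 value per gene, so which start was used cannot be told.
Cacna1e, chr1:154725921-154726170 (minus strand): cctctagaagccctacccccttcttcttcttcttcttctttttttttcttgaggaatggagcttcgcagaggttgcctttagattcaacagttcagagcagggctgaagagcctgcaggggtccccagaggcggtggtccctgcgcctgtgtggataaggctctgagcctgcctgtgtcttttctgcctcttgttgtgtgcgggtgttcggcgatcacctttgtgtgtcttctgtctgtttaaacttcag
Cacna1d, first start, chr14:30491157-30491406 (minus strand): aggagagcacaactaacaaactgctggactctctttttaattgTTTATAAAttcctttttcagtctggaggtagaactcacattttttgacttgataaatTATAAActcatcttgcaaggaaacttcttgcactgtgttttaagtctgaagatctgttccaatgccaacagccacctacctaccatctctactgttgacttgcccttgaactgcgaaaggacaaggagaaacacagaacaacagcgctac
Cacna1d, second start, chr14:30353487-30353736 (minus strand): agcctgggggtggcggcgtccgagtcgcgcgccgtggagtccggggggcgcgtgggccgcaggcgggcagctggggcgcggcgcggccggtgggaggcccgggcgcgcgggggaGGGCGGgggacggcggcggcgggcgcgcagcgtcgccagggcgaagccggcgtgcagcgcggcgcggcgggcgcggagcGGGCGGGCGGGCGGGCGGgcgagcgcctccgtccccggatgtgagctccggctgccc
Fgf12, first start, chr16:28753244-28753493 (minus strand): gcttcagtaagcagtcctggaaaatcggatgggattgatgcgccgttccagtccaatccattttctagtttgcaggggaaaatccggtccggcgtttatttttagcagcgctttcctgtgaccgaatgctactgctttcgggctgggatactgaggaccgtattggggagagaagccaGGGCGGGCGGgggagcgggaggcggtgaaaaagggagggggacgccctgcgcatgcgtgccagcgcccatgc
Fgf12, last start, chr16:28446076-28446325 (minus strand): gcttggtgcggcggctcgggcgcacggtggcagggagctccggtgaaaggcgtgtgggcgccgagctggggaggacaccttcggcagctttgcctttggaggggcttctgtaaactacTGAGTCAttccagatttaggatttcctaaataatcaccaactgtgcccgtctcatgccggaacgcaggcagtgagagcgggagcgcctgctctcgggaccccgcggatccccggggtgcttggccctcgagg

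The pair of Cacna1d starts differed widely in composition, with 39.6% G and C before the first and 86.4% before the second. The first held TATA box letters beginning 207, 205 and 150 bases before the start, those at 207 and 205 overlapping on opposite strands. The second held 5 GC box matches, beginning at 136, 57, 53, 49 and 45 bases. Those from 57 to 45 bases overlap in a single run of letters. The R-type pore gene Cacna1e held no match to any motif searched. Fgf12 has 4 starts in the table, of which the first and the last are shown. The first had overlapping GC box matches at 72 and 68 bases, and the last an AP-1 match at 132 bases. Of the starts between them, one had a GC box at 172 bases and the other at 206 and 56 bases. Over all channel genes the median was 63.6% G and C for 41 starts, beside 52.4% for all 32851 starts in the table. A GC box stood in 19 of the 41 (46.3%, against 32.7% of all starts) and a TATA box in 2 (4.88%, against 12.4%), those of Cacna1d and Scn2a. AP-1 letters stood in 2 (4.88%, against 6.75%), of Fgf12 and Fgf13. The CRE palindrome (TGACGTCA) and the E-box (CACGTG) stood in 0, against 1.55% and 6.02% of all starts, and an EGR site (GCGTGGGCG) in 1, of Scn7a (2.44%, against 0.536%). The Scn7a EGR match overlaps a GC box. A match is a description of letters only.

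Among the genes named here, mean levels ran from Scn2b at 55.4 FPKM to Scn9a at 0.540 FPKM. In all, 27 of the 34 lay above the median row of the tables, 4.45 FPKM. Sorted by mean over the 6 libraries, 28 of 33 neighbouring pairs had overlapping ranges. Breaks in the order included those below Cacnb3, Cacna1b and Cacnb2, so most members close in level were not separated by their spread. FPKM is per transcript length, so levels can be set between genes, but the tables do not say how reads shared by similar paralogs were divided.

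**Figure D1:**
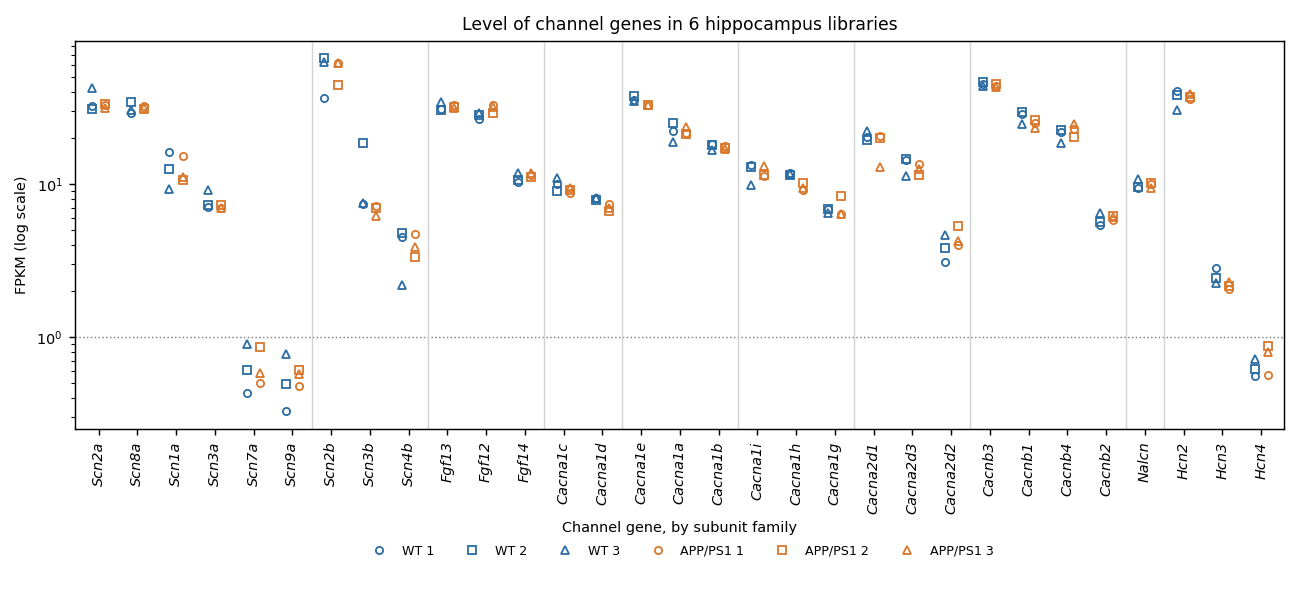
Level of each of 31 channel genes (FPKM, log scale) in 6 libraries, WT in blue and APP/PS1 in orange, grouped by subunit family, with a dotted line at 1 FPKM. Scn2b stood highest and Scn7a, Scn9a and Hcn4 lay under 1 FPKM, and blue and orange points mostly intermingle.

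Among sodium channel pores, 4 genes passed the filter on low values. Scn2a (Nav1.2), which dominates axon initial segments early in life and unmyelinated axons later, was at 32.1, 30.9 and 42.1 FPKM in the WT libraries and 32.9, 33.1 and 31.4 FPKM in the APP/PS1 libraries. WT replicate 3 stood above the others and the labels overlapped. Scn8a (Nav1.6), the pore of mature initial segments and nodes, was at 28.9, 34.5 and 30.3 against 32.4, 31.0 and 31.5 FPKM, a range that overlaps that of Scn2a. Scn1a (Nav1.1), known for its role in parvalbumin interneurons and in epilepsy, was at 16.1, 12.5 and 9.24 against 15.2, 10.6 and 11.1 FPKM. It was high in replicate 1 of each label and lowest in WT replicate 3, and the labels overlapped. Pvalb, the parvalbumin gene, was at 20.3, 15.0 and 10.9 against 17.7, 9.51 and 16.3 FPKM, so replicate 1 of each label was highest for it as well. Of the 7 interneuron markers, Vip did likewise, while Sst, Gad1, Gad2, Lhx6 and Slc32a1 did not. Gad2 (22.3 FPKM) and Slc32a1 (19.4 FPKM) were at their lowest in WT replicate 1. The part of interneurons in the Scn1a values was not tested.

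Scn3a (Nav1.3), mostly known from developing brain, was lower, between 6.94 and 9.14 FPKM, with its highest value in WT replicate 3. The ratio of Scn2a to Scn1a, which between them mark mainly excitatory and mainly inhibitory neurons, was 2.0, 2.47 and 4.56 in the WT libraries and 2.16, 3.11 and 2.82 in the APP/PS1 libraries. WT replicate 3 again stood above the other 5.

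Other alpha genes lay too low for the test, which asked for 1 FPKM in 3 libraries. Scn7a, a sodium-sensing relative, ran from 0.431 to 0.892 FPKM and Scn9a (Nav1.7), a pore of sensory neurons, from 0.327 to 0.767 FPKM. Both were lowest in WT replicate 1 and highest in WT replicate 3. In the RefSeq order on chromosome 2, Scn3a and Scn2a are next to each other, as are Scn1a, Scn9a and Scn7a, yet neighbours differed in level: Scn1a averaged 12.5 FPKM and the adjacent Scn9a 0.540 FPKM.

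Beta subunit genes differed widely in level. Scn2b, which is joined to the pore by a disulfide bond, was at 36.5, 66.1 and 62.2 against 62.0, 44.4 and 61.3 FPKM (log2 fold change 0.05, and 0.32 in the 4 libraries). Here WT replicate 1 and APP/PS1 replicate 2 were low and the other 4 lay close together, so the spread was within labels. Scn4b, linked to resurgent current, was at 4.51, 4.75 and 2.17 against 4.71, 3.31 and 3.87 FPKM, lowest in WT replicate 3. Scn2b and Scn4b are neighbours on chromosome 9 and differed in mean level, 55.4 against 3.89 FPKM.

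Scn3b had 1 value far from the rest. It was at 7.34, 18.6 and 7.49 FPKM in the WT libraries and 7.19, 6.98 and 6.16 FPKM in the APP/PS1 libraries, and WT replicate 2 stood 3.02-fold above the lowest library. Its labels did not overlap, but the lowest WT value and the highest APP/PS1 value were close. Its fold change (log2) of -0.52 (SE 0.340, limma adjusted p = 0.864) became -0.12 without WT replicate 2. It was -0.74 in the 4 libraries, which include WT replicate 2.

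Of the 3 intracellular homologous factors, Fgf13 and Fgf12 ranked 7 and 9 by mean level among the 34 members and Fgf14 ranked 18. Fgf13, the X-linked factor, was nearly even at 31.0, 30.5 and 34.2 FPKM against 32.7, 31.7 and 31.5 FPKM. Fgf12 measured 26.5, 28.4 and 29.0 FPKM in the WT libraries and 32.9, 29.1 and 31.7 FPKM in the APP/PS1 libraries. Its labels did not overlap, though only barely, since WT replicate 3 and APP/PS1 replicate 2 were almost equal, and the means were 28.0 ± 1.34 and 31.2 ± 1.96 FPKM (SD, n = 3). On the log2 scale the difference was 0.15 (SE 0.0632, limma adjusted p = 0.741), and 0.23 without those 2 libraries (limma adjusted p = 0.469). Fgf14, whose loss causes an ataxia, was at 10.2, 10.7 and 11.7 against 11.4, 11.1 and 11.8 FPKM, and the labels overlapped.

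Among calcium channel pores, the Cav2 genes of presynaptic release were the most abundant. Cacna1e, the R-type pore, was at 35.5, 37.5 and 34.7 FPKM in the WT libraries and 32.9, 32.9 and 33.0 FPKM in the APP/PS1 libraries. The APP/PS1 values were nearly equal, and each lay below each WT value, with means of 35.9 ± 1.44 and 32.9 ± 0.0628 FPKM (SD, n = 3). This was a log2 fold change of -0.12 (SE 0.0475, adjusted p = 0.726 by limma). Cacna1a, the P/Q-type pore, was at 22.2, 25.2 and 18.7 against 21.4, 21.0 and 23.7 FPKM, with the extremes in WT replicates 2 and 3. Cacna1b, the N-type pore, was steady at 16.6 to 18.2 FPKM. Of the summed FPKM of the 3 genes, Cacna1e made up 44.8% to 49.6%, Cacna1a 26.7% to 32.1% and Cacna1b 22.4% to 24.5%.

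The L-type pores couple activity to transcription in neurons. Cacna1d (Cav1.3), which opens at more negative potentials than Cacna1c, was at 8.06, 7.80 and 8.11 FPKM in the WT libraries and 7.36, 6.63 and 6.92 FPKM in the APP/PS1 libraries. Each APP/PS1 value lay below each WT value, with means of 7.99 ± 0.165 and 6.97 ± 0.367 FPKM (SD, n = 3) in WT and APP/PS1. Cacna1d thus differed by -0.17 on the log2 scale (SE 0.0592, limma adjusted p = 0.665). Cacna1c (Cav1.2) was at 10.04, 9.0 and 10.9 against 8.72, 9.14 and 9.40 FPKM, and its labels overlapped through WT replicate 2. The summed FPKM of both was 18.1, 16.8 and 19.0 against 16.1, 15.8 and 16.3.

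The T-type pores carry burst firing near rest. Cacna1h (Cav3.2) had the smallest p of all members. It was at 11.8, 11.4 and 11.6 FPKM in the WT libraries and 9.10, 10.1 and 9.41 FPKM in the APP/PS1 libraries, lower in 3 of 3 and without overlap. The means were 11.6 ± 0.209 and 9.54 ± 0.512 FPKM (SD, n = 3). Its log2 fold change was -0.26 (SE 0.0570, limma adjusted p = 0.466; 0.289 to 1.000 over the alternatives), and -0.30 in the 4 libraries (limma adjusted p = 0.334). Its unadjusted p stayed under 0.05 whichever library was left out. Cacna1i (Cav3.3) was at 13.3, 12.8 and 9.81 against 11.3, 11.5 and 13.2 FPKM, overlapping, and Cacna1g (Cav3.1) at 6.85, 6.86 and 6.45 against 6.34, 8.38 and 6.31 FPKM, with APP/PS1 replicate 2 highest. The ratio of Cacna1h to Cacna1g was 1.72, 1.66 and 1.80 against 1.43, 1.20 and 1.49.

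Labels overlapped for all 4 Cacnb genes. Cacnb3 was the steadiest member, between 43.2 and 46.4 FPKM, and made up 44.5% to 46.8% of the summed FPKM of Cacnb genes. Cacnb1 was at 28.6, 29.3 and 24.6 against 25.1, 26.0 and 23.1 FPKM, overlapping through WT replicate 3, and differed by -0.15 on the log2 scale (adjusted p = 0.816 by limma), or -0.26 in the 4 libraries (adjusted p = 0.418). Cacnb4, whose mutation underlies the lethargic mouse, ranged from 18.6 to 24.7 FPKM, and Cacnb2 from 5.38 to 6.44 FPKM.

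Among the alpha2delta genes, Cacna2d1, a binding site of gabapentin, was at 20.1, 19.3 and 22.0 FPKM in the WT libraries and 20.7, 20.1 and 12.8 FPKM in the APP/PS1 libraries. APP/PS1 replicate 3 alone was low. Cacna2d1 had a log2 fold change of -0.21 (SE 0.174, limma adjusted p = 0.886), or -0.0057 without that library. In the 4 libraries, which include APP/PS1 replicate 3, it was -0.26. Cacna2d2 was at 3.09, 3.82 and 4.63 against 3.99, 5.32 and 4.22 FPKM and Cacna2d3 at 14.2, 14.5 and 11.3 against 13.5, 11.5 and 12.6 FPKM, both overlapping.

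**Figure D2:**
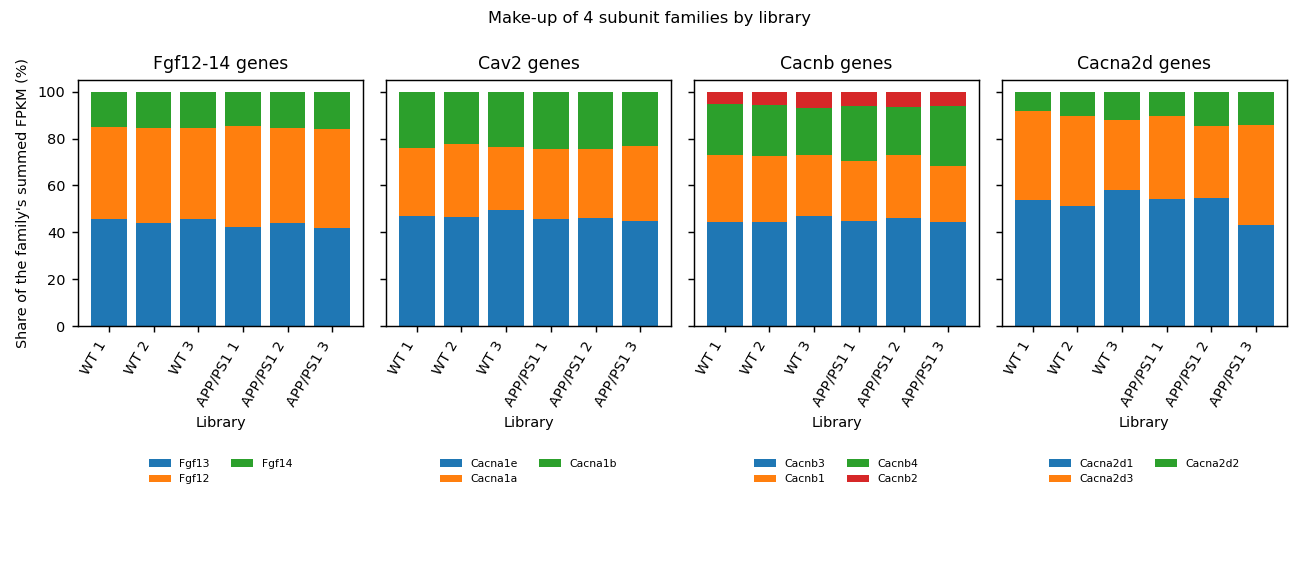
Share of each gene in the summed FPKM of its family (stacked bars from 0 to 100%) for Fgf12 to Fgf14, Cav2, Cacnb and Cacna2d genes, 1 bar per library. Cacnb3 ranged from 44.5% to 46.8% and Cacna1e from 44.8% to 49.6%, while Cacna2d1 ranged from 43.3% to 58.1%, lowest in APP/PS1 replicate 3.

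Hcn2 encodes a channel active near rest. It was at 40.5, 38.2 and 30.2 FPKM against 36.1, 36.8 and 38.9 FPKM, and the one low value was WT replicate 3. Hcn3 was at 2.82, 2.41 and 2.26 against 2.06, 2.15 and 2.28 FPKM, and WT replicate 3 and APP/PS1 replicate 3 overlapped. Hcn4, the pacemaker form of heart and thalamus, lay under the filter at 0.557 to 0.872 FPKM. Of 6 thalamus markers, 1 (Synpo2) stayed under 1 FPKM in every library, and their sum was 24.8 to 29.2 FPKM in the WT libraries and 27.1 to 28.2 FPKM in the APP/PS1 libraries. Nalcn was at 9.37, 9.57 and 10.8 against 9.97, 10.1 and 9.47 FPKM, overlapping.

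**Figure D3:**
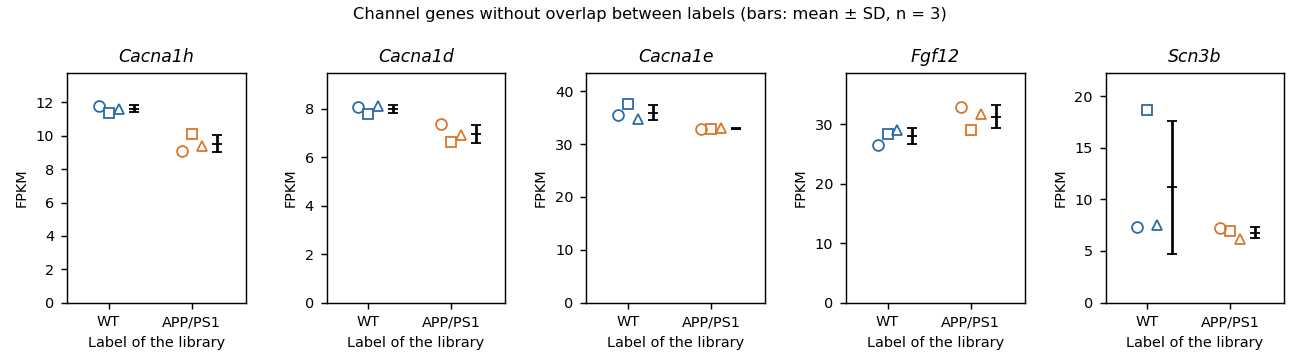
FPKM in each library of 5 channel genes whose labels do not overlap, with circles, squares and triangles for replicates 1 to 3 and black bars for the mean ± SD (n = 3). Cacna1h, Cacna1d and Cacna1e lie lower and Fgf12 higher in the APP/PS1 libraries, and the Scn3b spread comes from WT replicate 2.

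Of the 34 members 30 were tested, and 0 passed an adjusted p of 0.05 by limma, where 0.0219% of all 13700 genes passed. With an unadjusted p under 0.05 there were 3 lower (Cacna1h, Cacna1d and Cacna1e) and 1 higher (Fgf12), beside 3.83% and 2.85% of all genes, or 6.69% in either direction. Labels did not overlap for 4 members lower and 2 higher, beside 6.51% and 5.38% of all genes (11.9% in either direction). Nothing particular to channel genes is read from these small counts. The members split evenly into 15 positive and 15 negative, where 50.4% of all genes were negative, with a median log2 fold change of 5.24e-05 beside -0.00089 over all genes. The SE ran from 0.0460 to 0.340, and 19 members had a log2 fold change smaller than 0.1 in either direction.

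In the 4 libraries without WT replicate 3 and APP/PS1 replicate 2, 0 members passed an adjusted p of 0.05 by limma, where 0.197% of all genes did. An unadjusted p under 0.05 was then found for Cacna1h and Cacnb1 on the lower side and Fgf12 on the higher side, beside 4.98% and 4.2% of all genes. Cacna1d and Cacna1e had log2 fold changes of -0.13 and -0.14 there and missed it. The missed thresholds do not show that levels were equal.

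**Figure D4:**
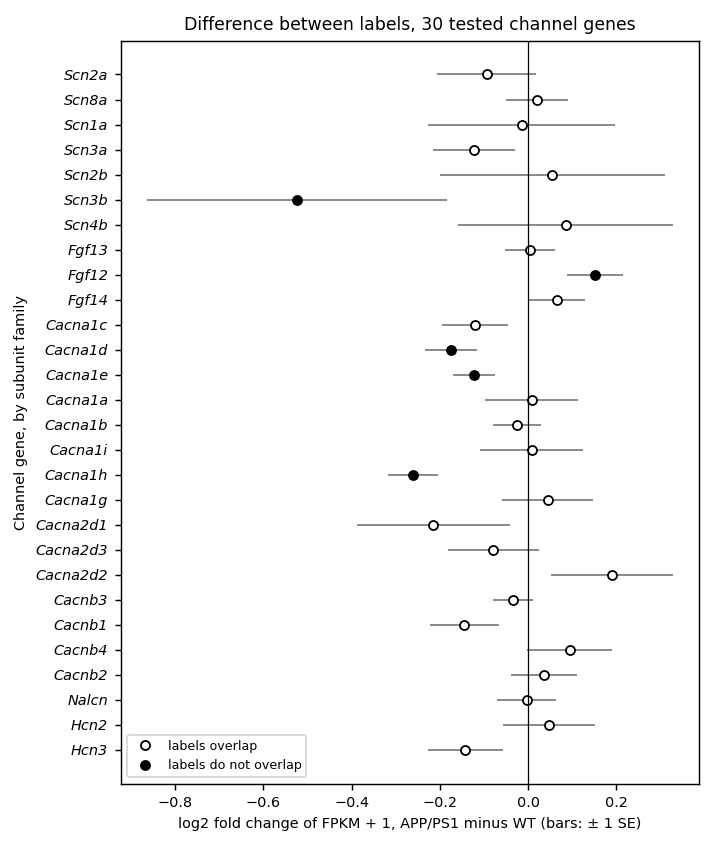
log2 fold change of FPKM + 1, APP/PS1 minus WT, for tested channel genes, with bars of 1 SE and filled points where labels do not overlap. Cacna1h lies farthest below 0 relative to its SE, while Scn3b lies lowest with the widest bar.

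The sums of dentate granule markers and of immediate early genes also stood apart by label in these libraries. The 6 dentate granule markers summed to 60.9, 65.8 and 79.4 FPKM in the WT libraries and 56.7, 54.9 and 49.7 FPKM in the APP/PS1 libraries, without overlap. Singly, C1ql2, Dsp and Tdo2 overlapped between labels, while Prox1, Lct and Calb1 were each lower without overlap. The 11 immediate early genes summed to 472, 405 and 354 against 210, 296 and 179 FPKM, also without overlap. The sums of the 7 oligodendrocyte markers overlapped, at 329, 297 and 380 against 396, 359 and 435 FPKM, though all 7 had a positive log2 fold change (median 0.24). Of these, Opalin (5.82, 5.89 and 5.90 against 8.43, 7.34 and 8.19 FPKM) and Mog (15.4, 13.6 and 15.4 against 19.0, 16.2 and 17.5 FPKM) were higher without overlap. By limma 0 of the markers in these 3 lists passed an adjusted p of 0.05, and 1 dentate marker was not tested. Their part in the values of Cacna1h, Cacna1d, Cacna1e and Fgf12 was not tested.

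The spread between libraries was examined next, regardless of label. The highest of the 6 values fell in WT replicates 1 to 3 for 7, 9 and 8 of the 30 tested members, beside 17.2%, 15.6% and 22.6% of all genes, and in APP/PS1 replicates 1 to 3 for 2 each, beside 16.3%, 13.3% and 14.9%. The lowest value fell in the WT libraries for 7, 2 and 10 members, beside 18.1%, 18.2% and 16.8%, and in the APP/PS1 libraries for 3, 2 and 6, beside 16.5%, 11.8% and 18.5%. So WT libraries held both ends more often than APP/PS1 libraries among these genes, as they also did, less markedly, over all genes. These counts were not tested. All members share the same 6 libraries, so nothing particular to channel genes is read from them. The highest value was over 1.5 times the lowest for 6 members, beside 23.6% of all genes. Of the 30 tested members, 7 lay more than 0.2 below their mean over the 6 libraries in WT replicate 3 on the log2(FPKM + 1) scale, beside 7.03% of all genes. Among these were Hcn2, Cacna1a, Cacnb4, Scn1a, Cacna1i and Scn4b. Another 3 lay more than 0.2 above it, Scn2a, Cacna2d1 and Scn3a, beside 8.01% of all genes. In the other 5 libraries between 0 and 2 members lay that far below. On the high side WT replicates 1 and 2 also had 3 members each, beside 6.62% and 6.31% of all genes. APP/PS1 replicates 1 to 3 had 2, 2 and 0, beside 5.04%, 4.85% and 6.15%. WT replicate 3 had the highest dentate granule sum (79.4 FPKM). Its sum over 5 CA1 markers was the lowest, 73.0 FPKM against 76.0 to 93.4 FPKM elsewhere, but these markers did not go one way there. Among them, Wfs1 (21.7 FPKM) was at its lowest in WT replicate 3, Fibcd1 (25.5 FPKM) and Man1a (9.96 FPKM) at their highest, and Pou3f1 (12.4 FPKM) at neither. The low sum came with Wfs1, which was at 29.0 to 43.7 FPKM in the other 5 libraries. The part of these markers in the channel values was not tested.

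**Figure D5:**
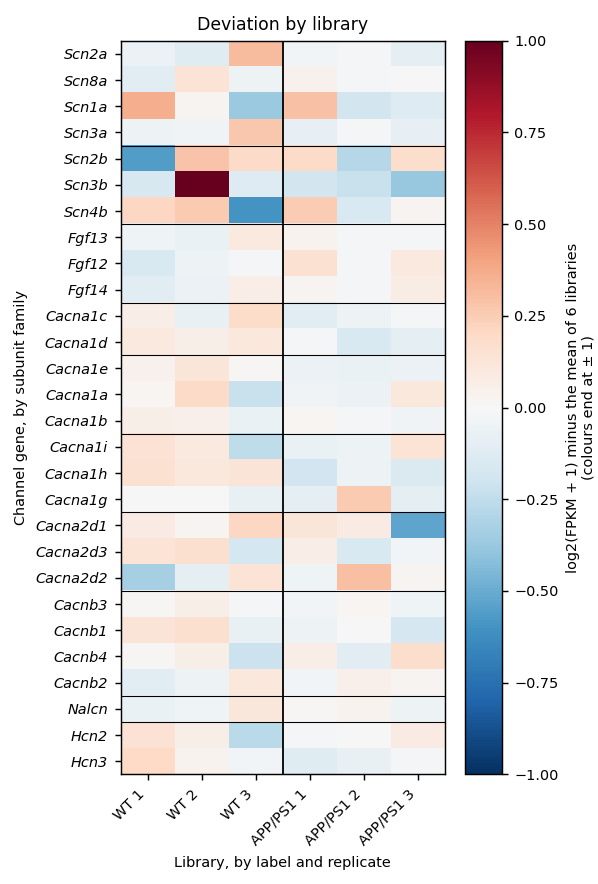
Deviation of tested channel genes from its mean over 6 libraries on the log2(FPKM + 1) scale (red above, blue below, colours ending at ± 1), libraries in columns. Hcn2, Cacna1a, Cacnb4, Scn1a, Cacna1i and Scn4b are blue in the WT 3 column, and the single darkest red cell is Scn3b in WT 2.

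Genes known to bind, anchor or regulate these channels were set beside them. Of 48 listed genes 42 had a row and 41 were tested, 20 positive and 21 negative, with a median log2 fold change of -0.0094, and 0 passed an adjusted p of 0.05 by limma. An unadjusted p under 0.05 was found for 1 lower and 2 higher, beside 3.83% and 2.85% of all genes. Labels did not overlap for 2 lower and 4 higher, beside 6.51% and 5.38% of all genes, and nothing particular to the list is read from these counts. Gem, a small GTPase that restrains calcium channels through the beta subunit, was at 2.62, 2.51 and 3.58 FPKM in the WT libraries and 0.878, 1.72 and 0.981 FPKM in the APP/PS1 libraries (log2 fold change -0.84, limma adjusted p = 0.357). Gem is itself known as an activity-induced gene. Rims2, a scaffold that holds calcium channels at release sites, was at 11.9, 12.2 and 12.7 against 14.8, 13.7 and 14.4 FPKM (log2 fold change 0.21, limma adjusted p = 0.580). Kcne2, a subunit that can join HCN and potassium channels and is abundant in choroid plexus, was at 5.13, 6.74 and 4.97 against 8.10, 7.20 and 7.26 FPKM.

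The other 3 partners without overlap had an unadjusted limma p above 0.05. Stac2, an adaptor of L-type channels, was at 17.5, 17.6 and 11.8 against 18.6, 18.4 and 19.7 FPKM, with WT replicate 3 low. Its relative Stac was at 2.20, 2.12 and 2.04 against 1.79, 1.96 and 2.004 FPKM. Kctd3, which binds Hcn3, was at 8.70, 9.0 and 8.82 against 9.07, 9.08 and 9.31 FPKM. The 5 choroid plexus markers, beside which the Kcne2 values stand, summed to 1054, 1186 and 845 against 1179, 1371 and 1098 FPKM, most of it Ttr. All 5 had a positive log2 fold change, as Kcne2 did. Sostdc1 (20.1, 17.04 and 19.9 against 28.5, 23.7 and 25.6 FPKM) and Folr1 (3.66, 4.78 and 3.42 against 4.91, 5.99 and 5.03 FPKM) were higher without overlap. Their part in Kcne2 was not tested.

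Circular RNAs gave a second readout of 2 members. Of 2246 circRNAs 257 had coordinates, and 2 lay inside a channel gene of the RefSeq table. The submitters' notes list the build mm9, but 254 of the 257 circles lay inside genes of GRCm38, so the build is uncertain, and positions are those in the files. A circle inside Cacna1a, at chr8:84556703-84612412 on the plus strand and spanning 55710 bases, had 1, 0 and 1 reads in the WT libraries and 13, 3 and 2 reads in the APP/PS1 libraries. Each APP/PS1 library had more reads than each WT library, as did 7.46% of all 2132 circRNAs tested. For this circle the filter of 2 reads in 3 libraries fixed that outcome, since no WT library reached 2 reads. The lack of overlap is therefore not a separate result. Most reads came from APP/PS1 replicate 1. There it stood at 664 CPM of circRNA reads (exact 95% interval 353 to 1135), against 71.4, 0 and 53.0 in the WT libraries, where a count of 0 in WT replicate 2 allows up to 168.1 CPM. Its log2 fold change was 2.78 (edgeR, adjusted p = 0.823), and 1.60 without APP/PS1 replicate 1 (edgeR, adjusted p = 0.955). Linear Cacna1a in the same libraries was at 22.2, 25.2 and 18.7 against 21.4, 21.0 and 23.7 FPKM.

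A circle inside Cacna2d3, at chr14:28943556-28956867 on the minus strand and spanning 13312 bases, had 0, 2 and 7 reads against 0, 0 and 2 reads. WT replicate 3 held 7 of its 9 WT reads, though linear Cacna2d3 was lowest in that library, at 11.3 FPKM. By edgeR it differed by -2.08 on the log2 scale (adjusted p = 0.831), by -0.21 in the 4 libraries and by -4.64 without APP/PS1 replicate 3. By edgeR 0 of these 2 circles passed an adjusted p of 0.05, where 0.0469% of all circRNAs did, and 1 had an unadjusted p under 0.05, as did 5.3% of all. Intervals and floors cover counting error only.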

How the data were processed

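Each of the 6 libraries (3 labelled WT, 3 labelled APP/PS1) has a gene table and a circRNA table. The labels' protocols describe frozen tissue, Trizol extraction and a TruSeq kit. The authors deposited gene values without a unit in the header, and they were taken to be FPKM because of their decimals, their sums and the listing of StringTie. The submitters' processing notes also name FastQC, HISAT2 and mm9. The authors deposited circRNA counts as whole numbers, 13998 to 19584 in all per library. The circRNA caller and the use of strand are not given in the sources used here, so reads of overlapping or antisense genes cannot be told apart. In a search for read-sized steps, the commonest ratio held 0.438% of 2054 low genes, and whole reads were not recovered.

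From these values, log2(FPKM + 1) was fitted with limma 3.58.1 in R 4.3.3 (label as the only term, trend and robust settings). The filter was 1 FPKM in 3 libraries, which left 13700 genes, and low genes have understated fold changes on this scale. For circRNAs, edgeR 4.0.16 (TMM, robust quasi-likelihood) was used on the 2132 with 2 reads in 3 libraries. All p-values were adjusted by Benjamini-Hochberg over the whole table. Both fits were tested on simulated data. For genes (13700), limma found 67% of 1.5-fold changes, 93% of 2-fold changes and 3 false calls. These changes, 100 of each size, were added on the log2(FPKM + 1) scale with independent noise for each gene. Smaller changes were not simulated. With Cacna1h at -0.26 on that scale, these shares do not give the power for the differences seen here. For circRNAs (2132), edgeR found 7% of 2-fold changes, 38% of 4-fold changes and 2 false calls. The alternatives changed the filter, the pseudocount (0.1), the scaling (quantile, TMM), the limma settings (no trend, array weights), the tool (DESeq2 1.42.0, circRNAs), the replicate block or the libraries, each being left out in turn. The set of 4 libraries was added after seeing the data. Channel genes and gene lists were chosen with earlier results of these data known. Some channel genes are counted in the totals and not reported here by name. Of the others every gene could be named, and of the partners the 6 with the smallest p among those with p under 0.05 or no overlap. Intervals are exact binomial at 95%, and the limit for a 0 is 3 counts.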

Additional observations from a re-analysis of the deposited data

How the results depend on the processing

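The count of members past an adjusted p of 0.05 was 0 under all 15 alternatives for genes and all 11 for circRNAs, and the lowest adjusted p of a channel gene over them was 0.289, for Cacna1h without APP/PS1 replicate 2. Of 28 tested members named here 16 kept their sign throughout, among them Cacna1h (-0.30 to -0.23), Cacna1d (-0.21 to -0.13), Cacna1e (-0.15 to -0.09) and Fgf12 (0.11 to 0.23). The count of members with an unadjusted p under 0.05 on the higher side was 0 for limma without trend and robust settings and 0 with the replicate number as a block, and 0 to 1 with a library left out. On the lower side it ran from 1 to 5 with a library left out, with 1 without WT replicate 1, APP/PS1 replicate 2 or APP/PS1 replicate 3 and 5 without WT replicate 3. The causes were not tested.

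The median log2 fold change was -0.031 with array weights, -0.069 in the 4 libraries and -0.062 to -0.0059 with a library left out. Scaling moved the median of all genes by less than 0.1. The block, on numbers that do not pair the libraries (correlations of 0.0098, -0.0561 and -0.0941 between same-numbered libraries), changed no adjusted call among the members. It gave 15 positive and 15 negative members as before. Over all genes, 1 passed an adjusted p of 0.05 by limma with the block and 3 without it. The log2 fold change took the other sign in the 4 libraries for Hcn2 (-0.068), Scn2a (0.029), Cacna1a (-0.071), Cacna1i (-0.090), Nalcn (0.034), Cacna1g (-0.10) and Scn4b (-0.093). With array weights it did so for Hcn2 (-0.0087), Scn8a (-0.0038), Cacna1a (-0.064), Cacna1i (-0.061), Nalcn (0.024) and Scn4b (-0.019), and with quantile scaling for Nalcn (0.0073). With a library left out, signs changed for Cacna1a (-0.10 to 0.11), Cacna1g (-0.075 to 0.11), Cacna1i (-0.12 to 0.084), Cacnb2 (-0.012 to 0.099), Fgf13 (-0.027 to 0.054), Hcn2 (-0.077 to 0.13), Nalcn (-0.038 to 0.052), Scn1a (-0.20 to 0.16), Scn2a (-0.18 to 0.042), Scn2b (-0.21 to 0.21), Scn4b (-0.19 to 0.24) and Scn8a (-0.033 to 0.091). Depth limits the circles, which rest on 2 and 18 reads by label for Cacna1a and on 9 and 2 for Cacna2d3.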
